A study of Homo sapiens with 6 samples.

Results

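The 10 genes described here carry the interleukin 6 (IL6) signal from the cell surface to the nucleus and back: the receptor subunits IL6R and IL6ST, the kinases JAK1, JAK2 and TYK2, the transcription factor STAT3, the feedback inhibitors SOCS1 and SOCS3, and the kinases PIM1 and PIM2. They were taken by name from the array annotation, using probe sets that list 1 gene symbol, and all 10 were found among 18417 measured genes, each on 1 probe set. RPMI 8226, a long-established culture of human multiple myeloma cells, was exposed to carbon ions, particles that leave dense tracks of ionisation. One group of 3 samples received 6 Gy and the other group of 3 samples received 0 Gy, and RNA of both groups was taken 1 day later. All were grown in medium with fetal calf serum, and the labels name no added cytokine. The labels number the samples within each dose without saying whether they were separate cultures, so each p-value is set against a spread that may be purely technical.

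IL6 binds IL6R, and the pair then engages IL6ST, the signal-transducing subunit shared by the cytokines of the IL6 family. The kinases JAK1, JAK2 and TYK2 are bound to IL6ST and phosphorylate STAT3, which enters the nucleus and switches on SOCS1, SOCS3, PIM1 and other genes. The SOCS proteins then block the receptor complex, and the PIM kinases favour growth and survival. In the bone marrow IL6 from stromal cells is a growth and survival factor of myeloma cells. The arrays measure mRNA, and neither protein nor phosphorylation was measured here.

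The values are the deposited log2 intensities of 6 arrays, whose medians lay between 5.66 and 5.72 on the irradiated arrays and between 5.64 and 5.67 on the unirradiated arrays. Their upper quartiles lay between 7.87 and 7.91 on the irradiated arrays and between 7.92 and 7.96 on the unirradiated arrays. A difference is the irradiated mean minus the unirradiated mean, tested with limma across all 18417 genes, and "rose" and "fell" are used only of genes that passed an adjusted p (Benjamini-Hochberg) under 0.05. The median standard error (SE) of a difference was 0.08, the median difference over all genes was 0.04, and the number of arrays limits the precision. All 7 plasma cell markers were bright in both groups, from TNFRSF17 (mean 9.98 irradiated, 9.95 unirradiated) to MZB1 (11.79 and 11.97); CD38 (10.18 and 10.59) and XBP1 (11.15 and 11.38) fell and the other 5 did not pass. Over all genes, 6.35% were called higher and 8.18% lower. Of 9 measured markers of other cell types 2 rose and 1 fell: the B cell gene MS4A1 (9.11 and 8.57), the fibroblast gene COL1A1 (6.69 and 6.46) and the epithelial gene EPCAM (10.10 and 10.49). The other 6 lay below the array medians or at them, from LYZ (3.32 and 3.21) to KRT8 (5.68 and 5.66). The part of these markers in the results below was not tested.

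Of the 10 genes, SOCS1 rose, IL6R and PIM1 fell, and 7 did not pass. The 1 riser stands against 6.35% of all genes called higher and the 2 that fell against 8.18% called lower, with 14.5% called in either direction. The split over all genes, 1169 higher and 1507 lower, was 1431 and 1369 with quantile normalization and 976 and 1908 with array medians subtracted, whereas the 3 members kept their calls in both. The ranges of the 2 groups stood clear of each other for 5 of the 10, namely IL6R, JAK1, SOCS1, PIM1 and PIM2, and for 34.7% of all genes. The median difference of the 10 genes was -0.0027. The 3 changes lay between 1.28-fold and 1.39-fold in size.

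IL6R encodes the subunit that recognises IL6 itself. Its log2 intensity was 9.26, 9.17 and 9.29 on the irradiated arrays, against 9.64, 9.63 and 9.53 on the unirradiated arrays. Every irradiated array lay below every unirradiated one, and the gap between the groups was wider than the range within either. IL6R fell by 0.36 ± 0.07 on the log2 scale (SE), which is 1.28-fold lower, with a limma adjusted p of 0.00851. In RNA from a whole culture, fewer cells with the transcript and less transcript per cell cannot be told apart.

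IL6ST, the partner shared with the other receptors of the family, gave 10.75, 10.80 and 10.71 on the irradiated arrays, against 10.71, 10.69 and 10.74 on the unirradiated arrays. The groups overlapped. The difference was 0.04 ± 0.06 (SE; limma adjusted p 0.718), and its 95% interval ran from -0.10 to 0.18. The interval of the IL6R difference, from -0.51 to -0.20, lay below that range. The difference between the 2 subunits was not tested, since different probe sets read them.

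**Figure D1:**
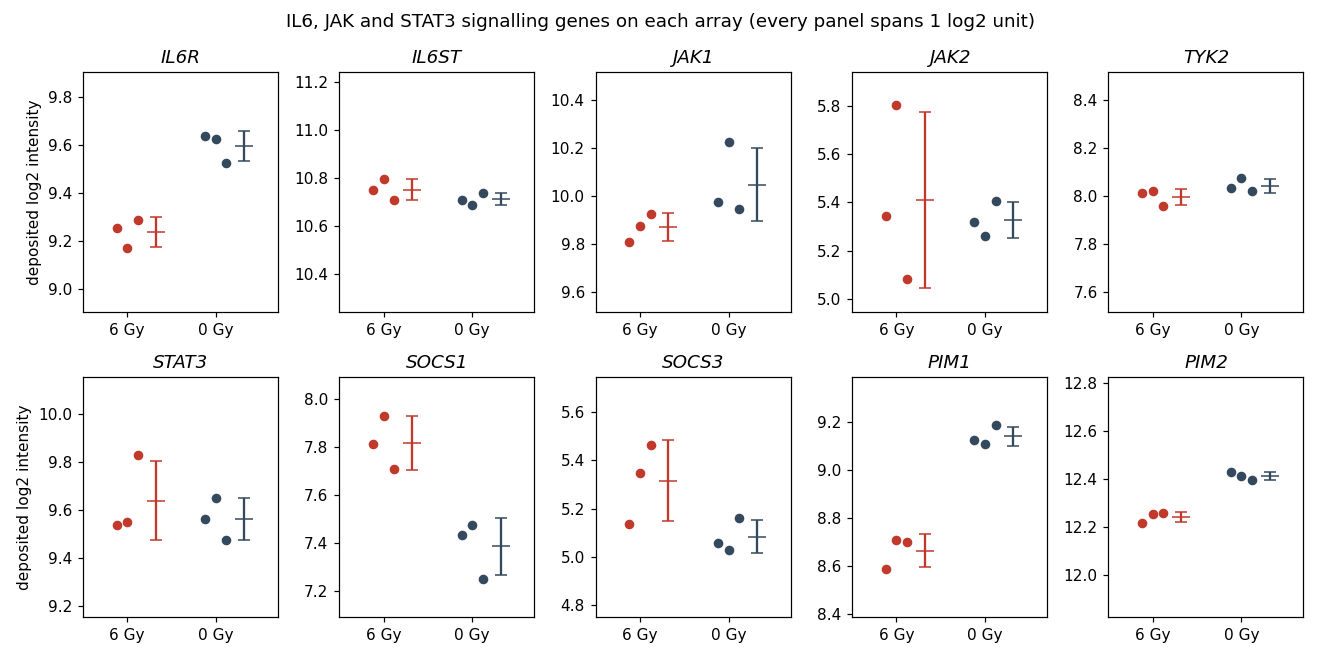
Deposited log2 intensity (vertical axes, each spanning 1 unit) of the 10 genes on each array, with 3 arrays given 6 Gy of carbon ions on the left and 3 given 0 Gy on the right of every panel; bars show the mean ± SD. The groups stand apart for IL6R, SOCS1, PIM1, PIM2 and, by a narrow margin, JAK1, and they overlap for the other genes.

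None of the 3 Janus kinases passed in limma, and none had an unadjusted p under 0.05 (the smallest was 0.0681, for JAK1). JAK1, which has the leading part in IL6 signalling, had log2 intensities of 9.81, 9.88 and 9.92 on the irradiated arrays, against 9.97, 10.22 and 9.95 on the unirradiated arrays. The groups did not overlap, but unirradiated replicate 2 stood well above its group and only a narrow step separated the others. The difference was -0.18 ± 0.09 (SE; limma adjusted p 0.203), with a 95% interval from -0.37 to 0.02. TYK2 gave 8.01, 8.02 and 7.96 on the irradiated arrays, against 8.03, 8.08 and 8.02 on the unirradiated arrays, a difference of -0.05 ± 0.06 (SE; adjusted p 0.673). The TYK2 values lay close together and overlapped, and the direction turned to 0.02 with quantile normalization.

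JAK2, the third kinase, was dim: it lay below the array median on 5 of the 6 arrays. It read 5.34, 5.80 and 5.08 on the irradiated arrays, against 5.32, 5.26 and 5.41 on the unirradiated arrays. The irradiated values spread on both sides of the unirradiated ones, with a standard deviation of 0.36 against 0.07. The difference was 0.08 ± 0.15 (SE; limma adjusted p 0.751), and without irradiated replicate 2 it was -0.11. No detection calls come with the table, so whether JAK2 lay above background is unknown.

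STAT3, the transcription factor at the end of the chain, did not pass either. Its log2 intensity was 9.54, 9.55 and 9.83 on the irradiated arrays, against 9.56, 9.65 and 9.48 on the unirradiated arrays. Irradiated replicate 3 was the highest of the 6 and the other irradiated values fell inside the unirradiated range. The difference was 0.08 ± 0.09 (SE; limma adjusted p 0.621), with a 95% interval from -0.13 to 0.28, and without irradiated replicate 3 it was -0.02.

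The feedback inhibitor SOCS1, which binds activated Janus kinases and silences them, was the 1 gene that rose. It had log2 intensities of 7.81, 7.93 and 7.71 on the irradiated arrays, against 7.43, 7.48 and 7.25 on the unirradiated arrays. All irradiated arrays lay above all unirradiated ones. The difference was 0.43 ± 0.09 (SE), or 1.35-fold higher, with a limma adjusted p of 0.00992. SOCS3, which binds IL6ST and JAK1 and is the main brake on IL6 signalling, read 5.13, 5.35 and 5.46 on the irradiated arrays, against 5.06, 5.03 and 5.16 on the unirradiated arrays. Irradiated replicate 1 fell inside the unirradiated range, and all 6 values lay below the array medians. Its difference of 0.23 ± 0.09 (SE) did not pass (limma adjusted p 0.118). Without irradiated replicate 1 it was 0.32 and passed (0.0412), so that 2 of the 10 genes were higher in that setting.

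PIM1 and PIM2 encode related serine/threonine kinases that promote survival and protein synthesis, and PIM2 is known for its high expression in myeloma. PIM1 had log2 intensities of 8.58, 8.71 and 8.70 on the irradiated arrays, against 9.12, 9.11 and 9.18 on the unirradiated arrays. The groups were widely separated, and PIM1 fell by 0.48 ± 0.07 (SE), which is 1.39-fold lower, with a limma adjusted p of 0.00194. This was the largest difference in size among the 10 genes.

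PIM2 gave 12.22, 12.25 and 12.26 on the irradiated arrays, against 12.43, 12.41 and 12.40 on the unirradiated arrays. The values within each group were tight and the groups did not overlap. The difference of -0.17 ± 0.06 (SE) did not pass (limma adjusted p 0.103, unadjusted p 0.0227), and its 95% interval ran from -0.31 to -0.03. With an intensity trend and a robust prior, which gave PIM2 a smaller standard error of 0.04, the adjusted p was 0.00932. PIM2 passed in only this 1 of the 14 alternatives. With an array left out, its limma adjusted p ran from 0.143 to 0.231. PIM3, the remaining kinase of the family, had means of 7.20 and 7.21 in irradiated and unirradiated cells and a difference of -0.01 ± 0.08 (SE; adjusted p 0.965).

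**Figure D2:**
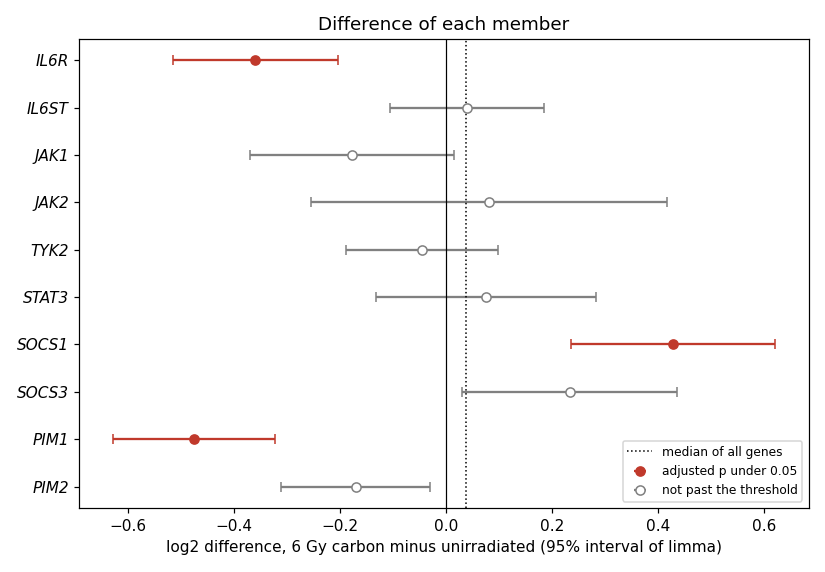
Log2 difference, 6 Gy carbon ions minus unirradiated (horizontal axis), of the 10 genes, with the 95% interval of limma; filled points passed an adjusted p under 0.05 and the dotted line is the median of all genes at 0.04. The intervals of IL6R and PIM1 lie below 0 and that of SOCS1 above it, and those of SOCS3 and PIM2 also miss 0 without passing the adjustment over 18417 genes.

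The sequences before the transcription starts of the 3 genes that changed are shown because STAT3 acts by binding DNA there or farther away. They come from the RefSeq annotation of GRCh38.p14, in which all 10 genes matched at least 1 window of 250 bases before to 50 bases after a start, 16 windows in all. Each is printed 5′ to 3′ on the strand of the gene, and capitals mark the GC box letters GGGCGG or their reverse complement CCGCCC in PIM1 and SOCS1. No letters are marked for IL6R. The PIM1 stretch is chr6:37170002-37170151 on the + strand, that of SOCS1 is chr16:11256205-11256354 on the - strand and that of IL6R is chr1:154405193-154405342 on the + strand, each the last 150 bases before the start.
PIM1: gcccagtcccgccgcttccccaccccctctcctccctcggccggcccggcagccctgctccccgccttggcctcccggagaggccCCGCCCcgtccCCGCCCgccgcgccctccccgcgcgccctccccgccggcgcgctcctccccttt
SOCS1: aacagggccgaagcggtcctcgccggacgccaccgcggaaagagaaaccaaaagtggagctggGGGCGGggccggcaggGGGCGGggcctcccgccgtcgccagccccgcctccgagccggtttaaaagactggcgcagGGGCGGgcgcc
IL6R: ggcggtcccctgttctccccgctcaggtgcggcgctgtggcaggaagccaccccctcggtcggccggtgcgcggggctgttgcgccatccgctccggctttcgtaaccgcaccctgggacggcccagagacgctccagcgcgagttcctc

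The letters TTCNNNGAA, which STAT proteins can bind and which read the same on both strands, were in 0 of the 16 windows of the 10 genes, compared with 7.66% of all 35116 windows in the table. The absence says only that these letters are not in these windows. A GC box on either strand was in 7 of the 16, at 1 window each of 7 genes, compared with 45.0% of all windows. The windows of PIM1 and SOCS1 were rich in G and C, with 79.7% and 74.0% of bases, and that of IL6R had 64.0%. The 3 printed stretches held no TTCNNNGAA, so it could not overlap a GC box there.

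Of the pathway genes described below, 49 of 68 had a window and 6 had TTCNNNGAA in at least 1: CISH, IRF1, ICAM1, BCL6, LIFR and IL10RB. The first 3 are shown, a feedback inhibitor and the 2 of the 6 that changed. The other 3 did not pass in limma, with differences of -0.09 for BCL6, 0.14 for LIFR and 0.23 for IL10RB (adjusted p 0.613, 0.212 and 0.0964). Counted by window rather than by gene, 7 of the 68 windows of these 49 genes held TTCNNNGAA, against 7.66% of all windows. CISH, a feedback inhibitor related to the SOCS genes and best known as a target of STAT5, held 4 matches. IRF1, encoding an interferon-induced transcription factor, and ICAM1, encoding a leukocyte adhesion molecule, held 1 each. Capitals mark the matches in chr3:50611875-50612019 (CISH, - strand), chr5:132490874-132490913 (IRF1, - strand) and chr19:10271030-10271069 (ICAM1, + strand).
CISH: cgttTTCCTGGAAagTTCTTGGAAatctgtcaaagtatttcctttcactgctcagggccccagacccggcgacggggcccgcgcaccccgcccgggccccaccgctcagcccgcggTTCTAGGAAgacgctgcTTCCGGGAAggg
IRF1: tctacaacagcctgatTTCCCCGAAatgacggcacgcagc
ICAM1: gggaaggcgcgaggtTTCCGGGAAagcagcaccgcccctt
Of the 3 genes, IRF1 and ICAM1, printed because they changed, went in opposite directions. CISH differed by 0.15 ± 0.08 (SE) and did not pass (limma adjusted p 0.255), IRF1 fell by 0.27 ± 0.08 (SE; 0.0469) and ICAM1 rose by 0.45 ± 0.07 (SE; 0.00335). The call of IRF1 ended with quantile normalization (-0.21, adjusted p 0.0821), and it held in only 6 of the 14 alternatives. That of ICAM1 held in all 14. A GC box stood in lower case in the stretches of CISH and ICAM1, 1 in each, outside the capitals.

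Around the 10 genes, 62 further genes of the pathway were measured of 68 listed, and 7 rose and 6 fell, or 13 of 62 against 14.5% of all genes. Their median difference was 0.02. Of the 7 IL6 family cytokine genes measured, 2 rose, 0 fell and 5 did not pass, against 6.35% of all genes called higher. EBI3, encoding a subunit of IL27 and IL35, had log2 intensities of 5.93, 6.55 and 6.35 on the irradiated arrays, against 5.46, 5.78 and 5.61 on the unirradiated arrays. The groups did not overlap, though irradiated replicate 1 lay near the highest unirradiated value, and EBI3 rose by 0.66 ± 0.14 (SE; limma adjusted p 0.0148). CTF1, encoding the cytokine cardiotrophin, rose by 0.30 ± 0.07 (SE; 0.0157).

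IL6 itself was dim in both groups, with 3.74, 3.90 and 3.92 on the irradiated arrays, against 3.87, 3.73 and 3.78 on the unirradiated arrays. On every array the value lay below the lower quartile, which was 3.91 to 3.97 on the irradiated arrays and 3.89 to 3.94 on the unirradiated arrays. The difference of 0.06 ± 0.08 (SE) did not pass (limma adjusted p 0.637). IL11 and OSM, which also signal through IL6ST, differed by 0.02 (0.901) and 0.02 (0.897).

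Against 6.35% of all genes called higher, 1 rose and 0 fell among 13 receptors of other cytokines that use Janus kinases. It was IL2RG, the common gamma chain of the IL2 receptor family, with 11.37, 11.35 and 11.16 on the irradiated arrays, against 10.36, 10.44 and 10.52 on the unirradiated arrays. The groups were far apart, and IL2RG rose by 0.85 ± 0.08 (SE), or 1.80-fold, with a limma adjusted p of 2.00e-04. JAK3, the kinase bound to that chain, rose as well, with 5.46, 5.65 and 5.73 on the irradiated arrays, against 5.28, 5.28 and 5.21 on the unirradiated arrays. Its values lay around or below the array medians without overlap, and the difference was 0.36 ± 0.08 (SE; 0.0172).

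JAK3 was the 1 gene of 5 measured among the other Janus kinases and STATs that passed. Over all genes, 14.5% passed in either direction. STAT5A differed by 0.05 ± 0.10 and STAT5B by -0.12 ± 0.09 (SE), with limma adjusted p of 0.754 and 0.431.

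Beside SOCS1 and SOCS3, 14 negative regulators were measured, of which 2 fell, 0 rose and 12 did not pass. The share of all genes called lower was 8.18%. SOCS2, known as a brake on growth hormone signalling, had 6.24, 6.38 and 6.19 on the irradiated arrays, against 6.68, 6.71 and 6.58 on the unirradiated arrays. It fell by 0.39 ± 0.08 (SE), with no overlap and a limma adjusted p of 0.00918, so SOCS1 and SOCS2 went in opposite directions. PTPN6, a phosphatase that removes phosphate from Janus kinases and receptors, fell by 0.40 ± 0.09 (SE; 0.0138). None of 8 adaptor and sheddase genes passed in limma. An unadjusted p under 0.05 was found for 2 of them and for 5482 of all 18417 genes. PTPN11, which links IL6ST to the RAS pathway, differed by -0.19 ± 0.08 (SE; adjusted p 0.160), and the adaptor gene GAB2, named after its value was seen, differed by 0.18 ± 0.06 (SE; 0.101).

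Beside SOCS1, SOCS3 and PIM1, which are described above and not counted here, genes known as STAT3 targets went both ways, with a median difference of -0.01. Among 15 measured genes were 3 risers, 4 that fell and 8 that did not pass. Over all genes, 6.35% were called higher and 8.18% lower. VEGFA, encoding an angiogenic growth factor, had 8.37, 8.40 and 8.51 on the irradiated arrays, against 9.37, 9.46 and 9.34 on the unirradiated arrays. It fell by 0.96 ± 0.07 (SE), which is 1.95-fold lower, with a limma adjusted p of 4.86e-05. CEBPB, encoding a transcription factor first known for binding the IL6 gene, had 8.51, 8.32 and 8.24 on the irradiated arrays, against 9.21, 9.21 and 9.44 on the unirradiated arrays. It fell by 0.93 ± 0.09 (SE; 2.45e-04), and both genes were lower by more than any of the 10 signalling genes.

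MYC fell by 0.33 ± 0.06 (SE; limma adjusted p 0.00918) beside IRF1. The risers beside ICAM1 were BIRC5, encoding the apoptosis inhibitor survivin, by 0.26 ± 0.08 (SE; 0.0469), and the cyclin gene CCND1 by 0.23 ± 0.07 (SE; 0.0469). These calls were at the edge of the threshold, and that of BIRC5 ended with array weights (0.0652) and that of CCND1 with array medians subtracted (0.0807). The survival gene MCL1 differed by -0.22 ± 0.07 (SE) and did not pass (0.0564), though it did in 4 of the 14 alternatives (down to 0.0127 with an intensity trend and a robust prior). BCL2L1, encoding a related survival protein, differed by 0.02 ± 0.07 (SE; 0.879). All of these genes answer to other regulators too, and what moved them was not tested.

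**Figure D3:**
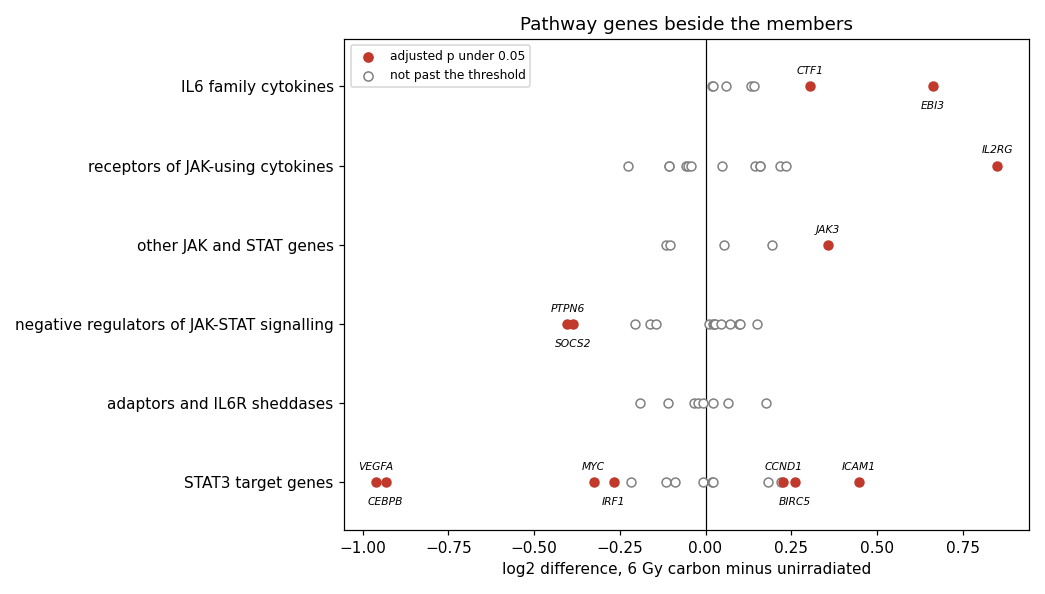
Log2 difference, 6 Gy carbon ions minus unirradiated (horizontal axis), of 62 further pathway genes in 6 lists; each point is a gene, and filled, named points passed an adjusted p under 0.05. The cytokine list holds 2 risers of 7 and the receptor list 1 of 13, against 6.35% of all genes called higher. The negative regulators hold 2 of 14 that fell, against 8.18% of all genes called lower. The STAT3 targets run from -0.96 for VEGFA to 0.45 for ICAM1.

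With 1 array left out in turn, IL6R, SOCS1 and PIM1 kept their calls in all 6 fits, with limma adjusted p from 0.0136 to 0.0401 for IL6R, from 0.00992 to 0.0362 for SOCS1 and from 0.00456 to 0.0104 for PIM1. Of the pathway genes, IL2RG, SOCS2, VEGFA, CEBPB, MYC and ICAM1 also passed in all 6. Calls ended for EBI3 without unirradiated replicate 1 (0.0584), for CTF1 without unirradiated replicate 1 (0.0608) or 2 (0.0516), for PTPN6 without unirradiated replicate 2 (0.0585) and for JAK3 without any 1 of the unirradiated arrays (up to 0.0585). BIRC5 and IRF1 each passed in 1 of the 6 fits and CCND1 in 0. The 7 pathway genes that rose became 2, 3 and 4 without unirradiated replicates 1, 2 and 3.

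**Figure D4:**
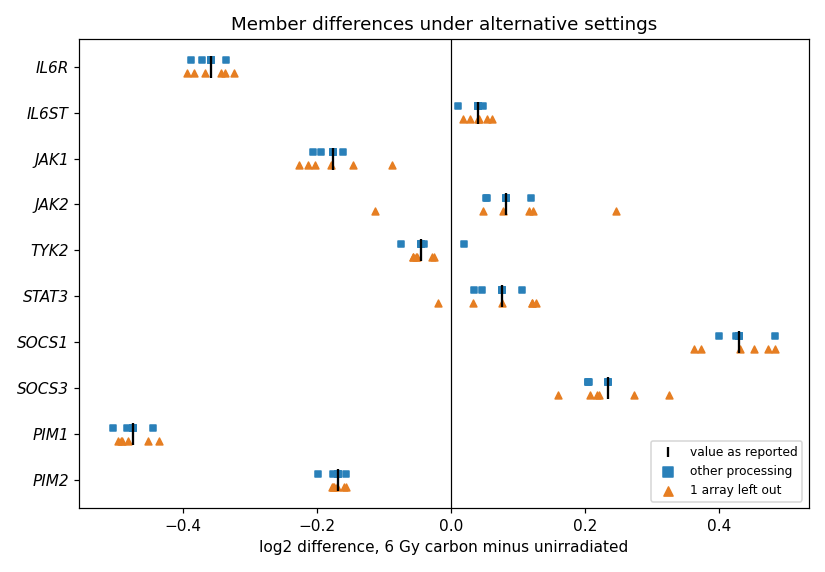
Log2 difference, 6 Gy carbon ions minus unirradiated (horizontal axis), of the 10 genes as reported (black bars), under other processing (squares) and with 1 array left out (triangles). IL6R and PIM1 stay below 0 and SOCS1 above 0 in every setting, whereas JAK2, TYK2 and STAT3 each cross 0 once. Some of the other processing cannot change a difference, so its squares share the horizontal position of the bar.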

How the data were processed

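The authors deposited 1 table of log2 values for 33297 probe sets on 6 arrays, from biotin-labelled total RNA extracted with Trizol per the labels' protocols. The log2 base was inferred from the range of about 2 to 14; the sources used here do not give the normalization, background correction or software, and no detection calls are held. By the platform annotation, which can be old, 19460 probe sets list 1 symbol, 1754 several and 12083 none. The brightest probe set over all 6 arrays stood for each gene, which gave 18417 genes. Groups were compared with lmFit and eBayes of limma 3.58.1 (R 4.3.3), two-sided, without covariates or filter, with Benjamini-Hochberg adjustment over all genes, at 4 residual and 5.85 prior degrees of freedom. SD is over 3 arrays of a group. An exact permutation test of 3 arrays against 3 cannot go below 0.1 and was not run. The limma step was tested on simulated data.

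The 10 genes, the pathway lists and the naming rule (all 10 genes, every changed pathway gene and 16 preset pathway genes, 1 of them not reported here) were chosen with earlier results of these data known. Alternatives were a filter on dim genes, quantile normalization, array medians subtracted, array weights, a robust prior with an intensity trend, the mean of probe sets, a stricter threshold, a replicate block and each array left out. Promoter windows are RefSeq's, GRCh38.p14. Figures were made with matplotlib 3.10.9.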

Additional observations from a re-analysis of the deposited data

How the results depend on the processing

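IL6R, SOCS1 and PIM1 kept their call in limma under all 14 alternatives, and their direction wherever a setting could change it. Of the 10 genes, 7 likewise kept their direction. The filter on dim genes, the robust prior with an intensity trend and the stricter threshold leave a member's difference as it was. So do the replicate block and, with 1 probe set per member, the mean of probe sets. These settings bear on the call alone. TYK2 turned to 0.0197 with quantile normalization, JAK2 to -0.11 without irradiated replicate 2 and STAT3 to -0.0197 without irradiated replicate 3. The count of higher members ran from 1 to 2 with an array left out. The count of lower members was 3 with an intensity trend and a robust prior and 2 in all other settings. At an adjusted p under 0.01, 1077 of all genes and 2 higher pathway genes were called; with an array left out these counts ran from 1471 to 2184 and from 2 to 6, all below the 2676 and 7 reported. Other settings raised the counts: 3237 genes with an intensity trend and a robust prior, 3178 with the filter on dim genes and 2974 with array weights. Lower pathway genes numbered 9 in place of 6 with the first 2 of these and with array medians subtracted. The count of all genes called was 1584 without unirradiated replicate 1 and 1471 without unirradiated replicate 2. Among pathway genes that did not pass, OSM turned to -0.0189 with quantile normalization and to -0.0122 with array medians subtracted, PIM3 to 0.0270 with quantile normalization, BCL2L1 to -0.0116 and IL11 to -0.0075 with array medians subtracted, and IL11 to -0.0068 with array weights. With an array left out, the differences ran from -0.0467 to 0.11 for IL11, from -0.0188 to 0.0649 for OSM, from -0.0628 to 0.0288 for PIM3, from -0.0335 to 0.14 for STAT5A, from -0.00065 to 0.0523 for BCL2L1, from -0.11 to 0.25 for JAK2 and from -0.0197 to 0.13 for STAT3. The cause of these turns was not tested. Under a replicate block by sample number, 1919 genes, 1 higher and 2 lower members and 5 higher and 5 lower pathway genes were called, and the calls of BIRC5 (0.0994), CCND1 (0.0844) and IRF1 (0.0573) ended. Deviations of same-numbered samples correlated at -0.04, 0.10 and -0.11, so no shared signal by number was seen. With 3 arrays per group this cannot tell whether same-numbered samples were paired. SOCS3, IL6 and OSM have no value with the filter on dim genes. Signal over background is unknown, which limits dim genes such as JAK2, SOCS3 and IL6.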
